A study of Mus musculus with 6 samples.

Results

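The transcripts described here are those of 10 genes of the BMP and SMAD pathway in mouse heart 14 days after myocardial infarction (MI): the ligands Bmp4 and Bmp6, the signal-carrying SMADs Smad1, Smad5, Smad2 and Smad3, their common partner Smad4, the inhibitory SMADs Smad6 and Smad7, and the target gene Id1. They were chosen by name, because ZEB2 is a SMAD-interacting transcription factor. Its gene was targeted for deletion in the cardiomyocytes of the Zeb2 cKO hearts. All 10 genes were found among the 38293 genes of the deposited count table by their Ensembl identifiers. Heart tissue of 3 Zeb2 cKO replicates was compared with that of 3 Zeb2 fl/fl replicates. All were male C57BL/6J (backcrossed) mice, given as 8 to 10 weeks old, in which the left anterior descending artery had been permanently occluded, and no sham-operated hearts were analysed here. Zeb2 cKO mice carry floxed Zeb2 alleles and a Cre recombinase driven by the Myh6 promoter, which is active in cardiomyocytes, while Zeb2 fl/fl mice carry the floxed alleles without Cre and are called WT in the sample labels. The labels place the tissue in the border region of the infarct and the methods in the remote zone. The sources used here do not say whether a replicate was 1 mouse or a pool, so that p-values measure the spread between these libraries.

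BMPs are secreted ligands of the TGF-beta family that bring together type I and type II receptor kinases on the cell surface. BMP receptors phosphorylate SMAD1, SMAD5 and SMAD9, whereas TGF-beta and activin receptors phosphorylate SMAD2 and SMAD3. The phosphorylated SMADs join SMAD4 and enter the nucleus, where BMP signals switch on targets such as the Id genes, and the inhibitory SMAD6 and SMAD7 act against the receptors and their SMADs. In the injured heart the TGF-beta arm is known for fibroblast activation and scar formation, and BMPs act on endothelial cells, fibroblasts and cardiomyocytes. Signalling through SMADs runs by phosphorylation, which RNA counts do not measure.

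The libraries held between 37288174 and 51136331 counts, of which 14301225 to 19024394 lay outside the 37 mitochondrially encoded genes. Levels are in CPM, which relates a gene's count to the size of its library, after TMM scaling, in the order of replicates 1, 2 and 3. Differences are log2 fold changes of Zeb2 cKO over Zeb2 fl/fl hearts from edgeR's quasi-likelihood test, with p-values adjusted after Benjamini and Hochberg over the 14746 genes that passed a filter on low counts. All 10 genes passed that filter. All 10 markers of cardiomyocytes were detected in every library, as were all 10 markers each of fibroblasts, macrophages and endothelial cells. Zeb2 fl/fl replicate 2 stood apart from the other libraries. Its fibroblast markers summed to 9912 CPM against 1762 to 2419 CPM in the other 5 libraries, and its macrophage markers to 841 CPM against 210.1 to 292 CPM, with all 10 markers of each list highest there. Its cardiomyocyte markers summed to 35446 CPM against 57135 to 69433 CPM, with 9 of 10 lowest there. In bulk tissue, fewer cells of a type and less RNA per cell cannot be told apart. Results that rest on this library are therefore given with and without it.

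Zeb2 (ENSMUSG00000026872, chromosome 2 of GRCm38, minus strand, 44983632 to 45117395) had 61.3, 116 and 71.9 CPM in Zeb2 fl/fl hearts against 59.6, 72.6 and 66.5 CPM in Zeb2 cKO hearts. The highest value was that of Zeb2 fl/fl replicate 2, and the other 5 libraries overlapped between the groups. The log2 fold change was -0.33 (95% interval -0.92 to 0.26, adjusted edgeR p = 0.957, exact permutation p = 0.5) with all libraries and -0.0058 without Zeb2 fl/fl replicate 2. The counts are per gene and from all cells of the tissue, so that they do not show the deleted part of Zeb2 in cardiomyocytes on its own. The study itself reported the loss of ZEB2 from cardiomyocytes by qPCR and immunofluorescence.

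After adjustment, 0 of the 10 genes and 0 of the 14746 tested genes (0%) had a p under 0.05 in edgeR's quasi-likelihood test, and adjusted p-values of the 10 ran from 0.957 to 0.991. An unadjusted p under 0.05 was reached by 0 of the 10 and by 280 (1.9%) of all tested genes. DESeq2's Wald test, with an adjusted p under 0.05, also called 0 of the 10, beside 1 (0.00415%) of the 24089 genes it tested. Of the 10 genes, 8 had a log2 fold change below 0 and 2 above, where 51.4% of all tested genes were below 0. Their median was -0.11, against -0.0069 for all tested genes. In Smad7 and Smad2 all 3 Zeb2 cKO libraries lay below all 3 Zeb2 fl/fl libraries, a pattern shown in that direction by 438 (2.97%) of the tested genes and in either direction by 938 (6.36%). The groups of the other 8 genes overlapped. When Zeb2 fl/fl replicate 2 was left out, the median of the 10 genes was -0.066 and 7 were below 0, against 49.1% of all genes then tested. In that fit 0 of the 10 and 393 (2.63%) of all genes had an unadjusted p under 0.05.

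**Figure D1:**
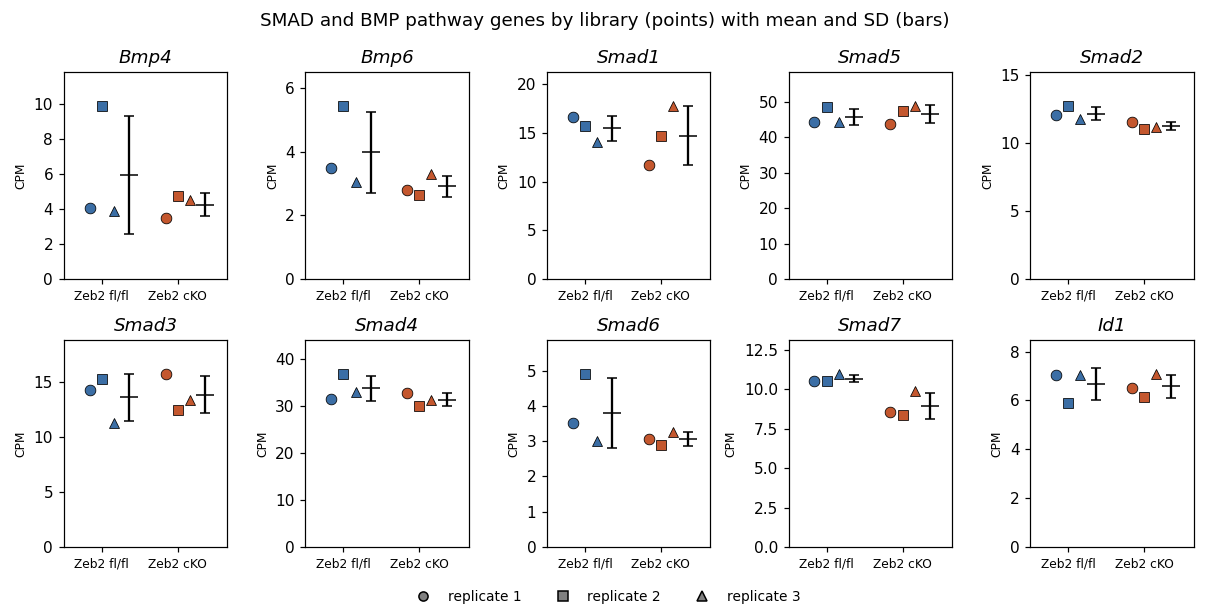
Level of each of the 10 genes in CPM (vertical axes, each from 0) in the 3 Zeb2 fl/fl and 3 Zeb2 cKO libraries, with the marker shape giving the replicate and the bars the mean and SD of each group. Zeb2 fl/fl replicate 2 stands above all other libraries for Bmp4, Bmp6 and Smad6, and the groups are apart for Smad7 and narrowly for Smad2.

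Bmp4 and Bmp6 encode secreted BMP ligands. Bmp4 (ENSMUSG00000021835, chromosome 14, minus strand, 46383520 to 46390669) acts in heart and vessel development, and Bmp6 (ENSMUSG00000039004, chromosome 13, plus strand, 38345107 to 38500302) is best known as the endothelial ligand that sets hepatic iron control. ZEB proteins bind E-boxes of the sequence CACCTG and the shorter CACCT it contains. In RefSeq windows of build GRCm38.p6, which were matched for 6 of the 10 genes (Smad1, Smad5, Smad3, Smad6, Bmp4 and Bmp6), the 250 bases before the start held CACCTG on either strand only for Bmp4 and Bmp6. Of the 8 windows of these 6 genes, 2 held CACCTG and the same 2 held CACCT. Among all 32851 windows of this length, 17.2% held CACCTG and 46% held CACCT. The window before Bmp4 and 30 bases of the window before Bmp6 are shown because they hold these letters, with the matches, or their reverse complements CAGGTG and AGGTG, in capitals.
Bmp4, GRCm38.p6 chr14:46390670-46390919, minus strand: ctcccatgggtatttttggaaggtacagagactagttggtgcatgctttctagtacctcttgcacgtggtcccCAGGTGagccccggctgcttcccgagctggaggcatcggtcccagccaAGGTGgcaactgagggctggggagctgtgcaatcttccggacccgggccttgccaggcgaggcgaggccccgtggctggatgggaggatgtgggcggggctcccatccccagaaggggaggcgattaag
Bmp6, GRCm38.p6 chr13:38345653-38345682, plus strand: ctgcctaggacaCACCTGgctcactcagcc
The Bmp4 match begins 177 bases before the start and the Bmp6 match 51 bases before it. The Bmp6 stretch lies inside the first exon of Gencode M21, whose gene model begins upstream of the RefSeq start. Such a match is a run of letters and no measured site, and binding was not measured here. The SMAD-binding letters CAGAC were found before Bmp6 and in 1 of the 3 windows of Smad5 (42.2% of all windows), and the GC-rich palindrome GGCGCC in another window of Smad5 (9.59% of all windows).

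Bmp4 had 4.09, 9.87 and 3.91 CPM in Zeb2 fl/fl hearts against 3.52, 4.77 and 4.50 CPM in Zeb2 cKO hearts. Replicate 2 of Zeb2 fl/fl lay above all others, and the remaining 5 libraries were intermingled. The group means were 5.95 ± 3.39 and 4.26 ± 0.66 CPM (SD, n = 3 each), and the coefficient of variation was 56.9% in Zeb2 fl/fl against 15.5% in Zeb2 cKO hearts. With all libraries the log2 fold change was -0.49 (95% interval -1.38 to 0.41, adjusted edgeR p = 0.957, exact permutation p = 0.8). It turned to 0.095 (95% interval -0.30 to 0.49) without Zeb2 fl/fl replicate 2. The fibroblast and macrophage markers were highest in the same library, and their part in the Bmp4 value was not tested. Of the Bmp4 exon bases, 89 are shared with Gm15217 on the opposite strand, which had 0 counts in all libraries.

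Bmp6 had 3.48, 5.42 and 3.05 CPM in Zeb2 fl/fl hearts against 2.80, 2.65 and 3.29 CPM in Zeb2 cKO hearts. Again replicate 2 of Zeb2 fl/fl was the highest, and 1 Zeb2 cKO library lay above the lowest Zeb2 fl/fl library, so the groups overlapped. The difference was -0.45 on the log2 scale (95% interval -1.04 to 0.13, adjusted edgeR p = 0.957, exact permutation p = 0.2), and -0.16 (95% interval -0.55 to 0.24) without that library. The exons of Bmp6 share 224 bases, 5.74% of their length, with Txndc5 on the opposite strand. Txndc5 had 926, 2687 and 1082 counts in Zeb2 fl/fl hearts against 1319, 1271 and 1588 counts in Zeb2 cKO hearts, so it too was highest in Zeb2 fl/fl replicate 2. The library kit keeps the strand, but the strand setting of the counting is not given in the sources used here, and the part of Txndc5 reads in the Bmp6 count was not tested.

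Smad1 and Smad5 encode the SMADs that BMP receptors phosphorylate. Smad1 (ENSMUSG00000031681, chromosome 8, minus strand, 79338395 to 79399518) had 16.6, 15.7 and 14.1 CPM in Zeb2 fl/fl hearts against 11.7, 14.7 and 17.7 CPM in Zeb2 cKO hearts. The lowest and the highest of the 6 values were both Zeb2 cKO libraries, and the groups overlapped fully. Its log2 fold change was -0.071 (95% interval -0.48 to 0.34, adjusted edgeR p = 0.964, exact permutation p = 0.8), with a coefficient of variation of 8.29% in Zeb2 fl/fl hearts against 20.4% in Zeb2 cKO hearts. Smad5 (ENSMUSG00000021540, chromosome 13, plus strand, 56703010 to 56742377) had 44.3, 48.4 and 44.2 CPM in Zeb2 fl/fl hearts against 43.6, 47.2 and 48.6 CPM in Zeb2 cKO hearts. The groups overlapped here as well, and in both the libraries lay close together, with coefficients of variation of 5.16% and 5.61%. The Smad5 difference was 0.027 on the log2 scale, and its 95% interval reached from 0.849-fold to 1.22-fold (adjusted edgeR p = 0.982, exact permutation p = 0.9).

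Smad2 and Smad3 encode the SMADs of the TGF-beta and activin arm. Smad2 (ENSMUSG00000024563, chromosome 18, plus strand, 76241580 to 76310963) had 12.03, 12.69 and 11.74 CPM in Zeb2 fl/fl hearts against 11.57, 11.04 and 11.18 CPM in Zeb2 cKO hearts. All Zeb2 cKO libraries were below all Zeb2 fl/fl libraries, but the nearest values of the groups, 11.74 and 11.57 CPM, almost met. The difference was -0.11 (95% interval -0.35 to 0.13, adjusted edgeR p = 0.957), with a two-sided exact permutation p of 0.1, the smallest that 3 against 3 libraries allow. Without Zeb2 fl/fl replicate 2, the highest library for Smad2, the difference was -0.074 (95% interval -0.30 to 0.15). Smad3 (ENSMUSG00000032402, chromosome 9, minus strand, 63646767 to 63757994) had 14.3, 15.3 and 11.2 CPM in Zeb2 fl/fl hearts against 15.7, 12.5 and 13.4 CPM in Zeb2 cKO hearts. Its groups overlapped, with a log2 fold change of 0.024 (95% interval -0.35 to 0.40, adjusted edgeR p = 0.990, exact permutation p = 0.9).

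Smad4 (ENSMUSG00000024515, chromosome 18, minus strand, 73639009 to 73703780), the partner that both arms share, had 31.5, 36.7 and 32.9 CPM in Zeb2 fl/fl hearts against 32.7, 30.0 and 31.2 CPM in Zeb2 cKO hearts. The highest value was that of Zeb2 fl/fl replicate 2, and the groups overlapped. The log2 fold change of Smad4 was -0.11 (95% interval -0.37 to 0.16, adjusted edgeR p = 0.957, exact permutation p = 0.2), and -0.038 without that library. For Smad1, Smad5, Smad2, Smad3 and Smad4 the 95% intervals with all libraries lay between 0.718-fold and 1.32-fold.

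Smad6 and Smad7 encode the inhibitory SMADs, which are themselves induced by BMP and TGF-beta signals in many cells. Smad7 (ENSMUSG00000025880, chromosome 18, plus strand, 75367529 to 75395935) had 10.5, 10.5 and 10.9 CPM in Zeb2 fl/fl hearts against 8.55, 8.37 and 9.86 CPM in Zeb2 cKO hearts. All 3 Zeb2 cKO libraries were below all 3 Zeb2 fl/fl libraries, and the Zeb2 fl/fl libraries were nearly alike (10.7 ± 0.233 against 8.93 ± 0.816 CPM, SD, n = 3 each). The log2 fold change was -0.26, or 0.837-fold, with a 95% interval from 0.691-fold to 1.01-fold. Its unadjusted edgeR p of 0.0643 was the smallest of the 10 genes and the adjusted p was 0.957, so the difference did not pass the test. The two-sided exact permutation p was 0.1, the smallest possible. With each library left out in turn the log2 fold change of Smad7 stayed between -0.34 and -0.21. Smad7 was not raised in Zeb2 fl/fl replicate 2, and without that library its log2 fold change was again -0.26 (95% interval -0.53 to 0.0092).

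Smad6 (ENSMUSG00000036867, chromosome 9, minus strand, 63953076 to 64022059) had 3.50, 4.90 and 2.99 CPM in Zeb2 fl/fl hearts against 3.06, 2.88 and 3.26 CPM in Zeb2 cKO hearts. The highest library was Zeb2 fl/fl replicate 2, as for the BMP ligands, and the others overlapped. The Smad6 difference of -0.31 (95% interval -0.81 to 0.19, adjusted edgeR p = 0.957, exact permutation p = 0.3) was -0.080 (95% interval -0.45 to 0.29) without that library. The markers of fibroblasts and macrophages moved with this library too, and their part in the Smad6 value was not tested.

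Id1 (ENSMUSG00000042745, chromosome 2, plus strand, 152736251 to 152737410), a direct target of BMP-activated SMADs, had 7.06, 5.90 and 7.03 CPM in Zeb2 fl/fl hearts against 6.51, 6.15 and 7.07 CPM in Zeb2 cKO hearts. The groups overlapped, and the lowest value was that of Zeb2 fl/fl replicate 2. Its log2 fold change was -0.018, with a 95% interval from 0.794-fold to 1.23-fold (adjusted edgeR p = 0.991, exact permutation p = 1.0), and it turned sign without a filter on low counts, to 0.0016, and in 3 of the 6 fits with 1 library left out. The 95% interval gives the precision of the Id1 estimate and is not a limit of detection.

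**Figure D2:**
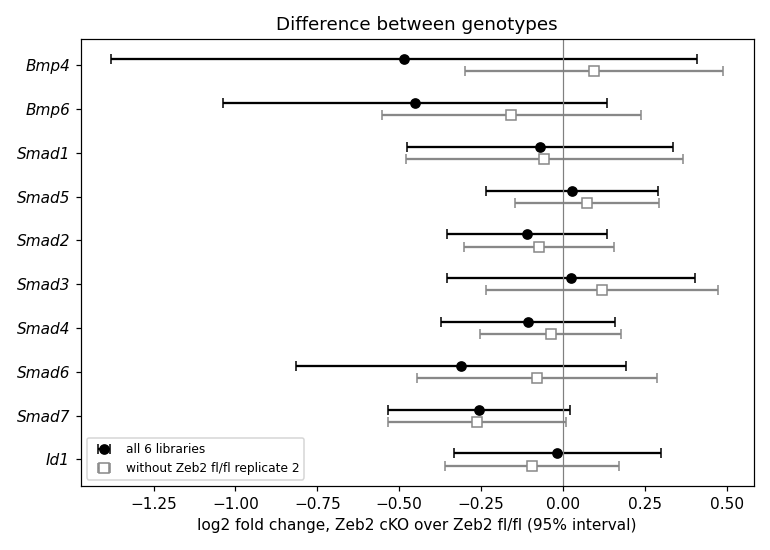
Log2 fold change of Zeb2 cKO over Zeb2 fl/fl hearts (horizontal axis) for each gene from edgeR, with its 95% interval, with all 6 libraries (filled circles) and without Zeb2 fl/fl replicate 2 (open squares). All intervals cross 0, Smad7 is at -0.26 in both fits, and Bmp4 moves from -0.49 to 0.095.

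The share of each SMAD class within a library does not depend on the scaling between libraries. Counts were divided by the exon length of each gene, which gives CPM per kilobase, and summed by class. Smad9, whose protein BMP receptors also phosphorylate, was grouped with the BMP-SMAD targets. It was left out of these sums, which hold 4 receptor-regulated SMADs (Smad1, Smad5, Smad2 and Smad3). The ratio of the BMP SMADs (Smad1 and Smad5) to the TGF-beta SMADs (Smad2 and Smad3) came to 2.18, 2.14 and 2.44 in Zeb2 fl/fl hearts against 1.86, 2.48 and 2.55 in Zeb2 cKO hearts. The groups overlapped, and the log2 difference was 0.016 (two-sided exact permutation p = 0.9), with a range of -0.066 to 0.16 when each library was left out. The ratio of the inhibitory SMADs (Smad6 and Smad7) to the 4 receptor-regulated SMADs came to 0.272, 0.292 and 0.290 in Zeb2 fl/fl hearts against 0.239, 0.225 and 0.245 in Zeb2 cKO hearts. All 3 Zeb2 cKO libraries were below all 3 Zeb2 fl/fl libraries. The mean ratios were 0.285 ± 0.0107 and 0.236 ± 0.0102 (SD, n = 3 each), a log2 difference of -0.27 that the exact permutation test put at its smallest possible two-sided p of 0.1. With each library left out in turn it was between -0.30 and -0.23. The ratio holds Smad7, whose groups were apart on their own, and is not a separate measurement of it.

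**Figure D3:**
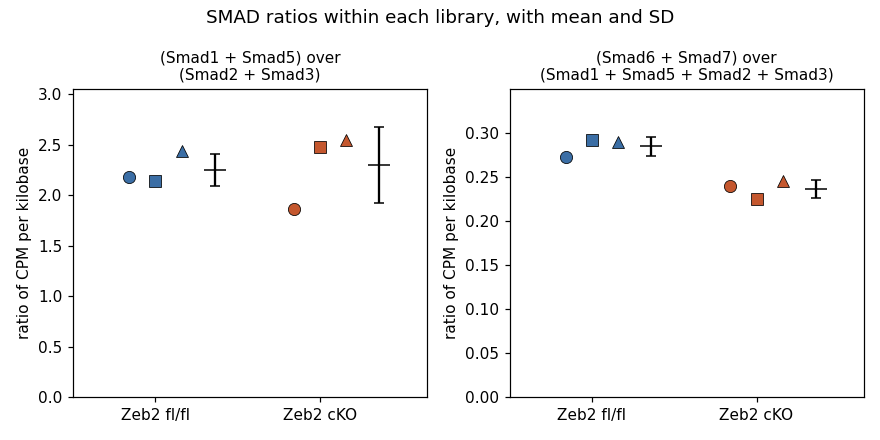
Ratios of summed CPM per kilobase within each library (vertical axes, from 0) by genotype, with mean and SD. Left, BMP over TGF-beta SMADs, where the groups overlap; right, inhibitory over receptor-regulated SMADs, at 0.272 to 0.292 in Zeb2 fl/fl and 0.225 to 0.245 in Zeb2 cKO libraries.

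Over all 6 libraries, the level per kilobase was highest for Smad4 (8.76 ± 0.624 CPM per kilobase, SD, n = 6), followed by Smad5 at 6.21 and Id1 at 5.71. Smad3 at 2.48, Smad1 at 2.41, Bmp4 at 2.27 and Smad7 at 2.17 CPM per kilobase came next, and Smad2 at 1.33, Smad6 at 1.07 and Bmp6 at 0.884 CPM per kilobase were the lowest. Of the 9 neighbouring pairs in that order, the ranges of the 6 libraries were apart only between Smad4 and Smad5, Id1 and Smad3, and Smad7 and Smad2. The ranges of the other 6 pairs overlapped. Compared within each library, however, Smad6 was above Bmp6 in 6 of 6, Smad2 above Smad6 and Smad1 above Bmp4 in 5 of 6, Smad5 above Id1 in 4 of 6, and Smad3 above Smad1 and Bmp4 above Smad7 in only 2 of 6. With the length of the longest transcript in place of all exons, Smad1 came before Smad3. Bmp4 had the widest range of the 10, from 1.56 to 4.39 CPM per kilobase. Its highest value was that of Zeb2 fl/fl replicate 2, and the order of the means is given with all libraries only.

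Zeb2 fl/fl replicate 2 was the highest of the 6 libraries for 5 of the 10 genes (Bmp4, Bmp6, Smad6, Smad4 and Smad2) and the lowest for 1 (Id1). Among all tested genes it was the highest for 35.2% and the lowest for 34.6%. Against the mean of the other Zeb2 fl/fl libraries, the log2 ratio in this library was 1.30 for Bmp4, 0.73 for Bmp6 and 0.59 for Smad6, and -0.029 for Smad7 and -0.26 for Id1. The genes whose pattern over the 6 libraries was nearest to each of the 10 were found by the root mean square difference of log2 CPM centred on the gene's mean, among 14736 other tested genes. Bmp4 lay nearest to Kif21b and Themis2 (0.050 each), Bmp6 to Pxdc1 (0.049) and Cavin3 (0.067), Smad6 to Wwp2 (0.052) and Dnal1 (0.056), and Smad7 to Nfatc2 (0.032) and Gsk3b (0.049). Smad1 lay nearest to Emid1 (0.032) and Arhgef2 (0.037), Smad5 to Ythdf2 and Uvrag (0.025 each), Smad2 to Kdm4c (0.017) and Scaf11 (0.022), and Smad3 to Ccdc134 (0.040) and Yipf2 (0.051). For Smad4 the nearest were Ddx52 (0.020) and Stam (0.027), and for Id1 Tnrc6b (0.021) and Ccnk (0.026). Within the 10, the nearest pairs were Smad2 with Smad4 (0.046) and Smad6 with Bmp6 (0.093). These distances rest on 6 libraries and describe them.

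The Id genes parted in that library. Id2 had 3.48, 33.0 and 5.05 CPM in Zeb2 fl/fl hearts against 5.66, 6.27 and 5.27 CPM in Zeb2 cKO hearts, and Id3 at 13.2, 28.5 and 16.4 against 13.6, 13.1 and 14.5 CPM. Both were highest in Zeb2 fl/fl replicate 2, where Id1 was lowest. The log2 fold change of Id2 was -1.28 (adjusted p = 0.957, edgeR) and turned to 0.43 (95% interval 0.0050 to 0.85) without that library, when its unadjusted p was 0.0479 and its adjusted p 1.00. For Id3 it was -0.49 with and -0.10 without that library.

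**Figure D4:**
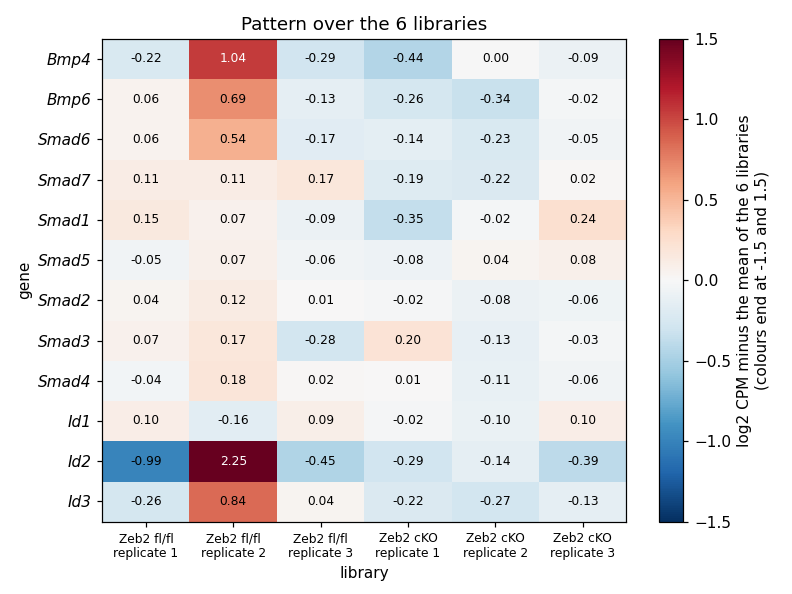
Log2 CPM of each gene minus its mean over the 6 libraries (colour and printed value), with the 10 genes above and Id2 and Id3 below. The second column, Zeb2 fl/fl replicate 2, holds the largest values of Bmp4 (1.04), Bmp6 (0.69), Smad6 (0.54), Id2 (2.25) and Id3 (0.84), and the lowest value of Id1 (-0.16).

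Around the 10 genes, 86 other genes of the pathway were grouped by role, and 70 of them passed the filter on low counts. Of these, 0 had an adjusted p under 0.05 in edgeR's test in either direction, beside 4 with an unadjusted p under 0.05 (3 lower, Bmpr1b and Ltbp2 among them, and Bmp5 higher in Zeb2 cKO hearts). Over all tested genes such a p was reached by 0.861% in the lower and 1.04% in the higher direction. The number of pathway genes with an unadjusted p under 0.05 depended on the fit. It was 10 of 84 with DESeq2, 9 of 84 without the filter on low counts, and 3 or 4 of 70 in the other fits that keep all libraries. With 1 library left out it ran from 1 to 16, with 16 without Zeb2 fl/fl replicate 1 and 2 without Zeb2 fl/fl replicate 2. In each of these fits 0 had an adjusted p under 0.05. In 5 of the 70 the groups did not overlap, Bmpr1b, Trim33, Lemd3 and Zfp423 being lower and Bmp5 higher, against 2.97% and 3.39% of all tested genes. A log2 fold change below 0 was found in 59 of the 70, with a median of -0.24. Without Zeb2 fl/fl replicate 2 it was found in 42 of the 70, with a median of -0.017. That library was the highest of the 6 for 50 of them.

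Among the 11 other BMP and GDF ligands, 4 were tested, with 2 below and 2 above 0 and a median log2 fold change of 0.13. When Zeb2 fl/fl replicate 2 was left out, all 4 were above 0 and the median was 0.28. Bmp5, a ligand close to Bmp6, had 0.982, 0.752 and 0.833 CPM in Zeb2 fl/fl hearts against 1.02, 1.45 and 1.38 CPM in Zeb2 cKO hearts. All Zeb2 cKO libraries lay above all Zeb2 fl/fl libraries, at 32 to 37 counts against 51 to 74 counts. Its log2 fold change was 0.58 (95% interval 0.016 to 1.15, unadjusted p = 0.0452, adjusted p = 0.957, edgeR), and 0.50 without that replicate, with an interval of -0.11 to 1.11 that includes 0. Gdf6, another ligand of this family, had 0.690, 4.97 and 1.28 CPM in Zeb2 fl/fl hearts against 0.580, 0.853 and 1.77 CPM in Zeb2 cKO hearts, highest in Zeb2 fl/fl replicate 2. Its log2 fold change was -1.12 with and 0.13 without that library. Bmp10, a ligand of the embryonic and atrial heart, and Bmp8b had 0 counts in every library, and a count of 0 allows a true level of up to 3 counts.

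All 11 BMP receptors and co-receptors were tested, and 8 were below and 3 above 0, with a median of -0.15 that was -0.015 without Zeb2 fl/fl replicate 2. Bmpr1b, a type I receptor, had 0.451, 0.661 and 0.312 CPM in Zeb2 fl/fl hearts against 0.0999, 0.230 and 0.242 CPM in Zeb2 cKO hearts. All Zeb2 cKO libraries were below all Zeb2 fl/fl libraries, but the counts behind them were small, 12 to 29 against 5 to 13. Its log2 fold change was -1.31 (95% interval -2.38 to -0.25, unadjusted p = 0.0223, adjusted p = 0.957, edgeR), and -0.99 (95% interval -2.08 to 0.10) without Zeb2 fl/fl replicate 2. The more abundant receptors Bmpr1a and Bmpr2 had log2 fold changes of -0.073 and -0.15. Hjv, a BMP co-receptor of striated muscle and liver, had 48.3, 21.3 and 43.3 CPM in Zeb2 fl/fl hearts against 61.1, 47.0 and 51.4 CPM in Zeb2 cKO hearts, lowest in Zeb2 fl/fl replicate 2 like the cardiomyocyte markers. The log2 fold change of Hjv was 0.50 with and 0.22 without that library.

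Of the 14 extracellular antagonists and modulators, 9 were tested and all 9 were below 0, with a median of -0.67, and all 9 were highest in Zeb2 fl/fl replicate 2. Without that library 6 of the 9 were above 0 and the median was 0.089. Fst, which binds activins and BMPs, had 0.451, 12.9 and 1.35 CPM in Zeb2 fl/fl hearts against 1.499, 1.06 and 0.986 CPM in Zeb2 cKO hearts. Outside replicate 2 its groups overlapped, and the log2 fold change moved from -2.05 to 0.39 without it. Nbl1, a BMP antagonist of the DAN family, moved from -0.83 to -0.21.

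In the receptors and ligands of the SMAD2/3 arm, 10 of 12 were tested, and all 10 were below 0 with a median of -0.41. When that replicate 2 was left out, 7 of the 10 were below 0 and the median was -0.043. Tgfb3, a TGF-beta ligand, had 18.4, 99.3 and 20.1 CPM in Zeb2 fl/fl hearts against 15.9, 18.3 and 21.4 CPM in Zeb2 cKO hearts. It was about level in 5 libraries and high in Zeb2 fl/fl replicate 2, and its log2 fold change went from -1.31 to -0.054 without that library. Inhbb, which encodes an activin subunit, went from -0.57 to -0.21.

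All 24 SMAD partners and regulators were tested, with 18 below and 6 above 0 and a median of -0.12, and with 17 below and 7 above 0 and a median of -0.048 when Zeb2 fl/fl replicate 2 was left out. Zfp423, a zinc finger protein that binds SMADs at BMP targets, had 3.19, 6.36 and 3.28 CPM in Zeb2 fl/fl hearts against 2.18, 2.74 and 3.18 CPM in Zeb2 cKO hearts, with groups that did not overlap but met at 3.19 and 3.18 CPM. Its log2 fold change was -0.66 with all libraries and -0.26 (95% interval -0.71 to 0.20) without that replicate. Trim33 and Lemd3, which bind SMADs at chromatin and at the inner nuclear membrane, had log2 fold changes of -0.14 and -0.16, or -0.098 and -0.15 without it, and their groups did not overlap. Ski, a SMAD corepressor, had one of -0.32 (unadjusted p = 0.0777, edgeR), or -0.22 without it, and its groups overlapped. Zeb1, the paralog of Zeb2, had a log2 fold change of -0.013.

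Of the 9 other BMP-SMAD targets, 7 were tested and all 7 were below 0, with a median of -0.16 that was 0.014 without Zeb2 fl/fl replicate 2. The 6 TGF-beta-SMAD targets were all tested and below 0, with a median of -0.95, and all 6 were highest in that library. Without it, 5 of 6 were below 0 and the median was -0.32. Ltbp2, an extracellular matrix protein, had 31.0, 202 and 31.5 CPM in Zeb2 fl/fl hearts against 12.7, 19.5 and 36.3 CPM in Zeb2 cKO hearts, and went from -1.95 (unadjusted p = 0.0496, adjusted p = 0.957, edgeR) to -0.45 without that library.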

How the data were processed

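RNA sequencing had been performed on hearts of both genotypes, with 3 replicates of each. According to the methods, RNA without ribosomal RNA was made into stranded libraries, read as single ends of 75 bases and quantified against Gencode M4 with the STAR workflow. The authors deposited raw counts per gene, without normalization. The strand option and the treatment of reads that map to several places are not given in the sources used here.

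The 10 genes, the pathway lists and the marker lists were chosen with earlier results of these data known. Symbols and exon lengths came from Gencode M21 (GRCm38), which gave a symbol to 14573 of the 14746 genes tested, and Hjv is listed there as Hfe2. The deposited counts were fitted in edgeR 4.0.16 (R 4.3.3) with TMM, filterByExpr defaults, glmQLFit and glmQLFTest, genotype being the only factor, and with Benjamini-Hochberg adjustment over all genes kept. The prior count was 0.125 for log2 fold changes, and patterns were taken from log2 CPM with a pseudocount of 0.5 counts. Exact permutation tests were two-sided (scipy 1.17.1, Python 3.11.15). DESeq2 1.42.0 was an alternative, and the study itself used DESeq. The steps were also run on simulated data, and the outcome is not given here. The number of libraries limits the precision, and for genes of few counts, such as Bmpr1b, so does counting error. Promoter windows, from 250 bases before to 50 after a start, came from RefSeq (GRCm38.p6). Near-identical stretches of at least 75 bases and 95% identity in other genes, searched with BLAST 2.17.0, covered 4.31% of the longest transcript of Bmp4, 6.23% of Bmp6, 1.89% of Zeb2 and none of the other 8 genes.

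Named were the 10 genes and Zeb2; in each list up to 2 genes with the smallest unadjusted p and any with an unadjusted p under 0.05 or without overlap of the groups; and the 2 genes nearest in pattern to each of the 10. Bmpr1a, Bmpr2, Zeb1, Bmp10 and Bmp8b were named after their values were seen, and of the cell type lists those of smooth muscle, adipocytes, lymphocytes and Schwann cells appear only under the other observations. Of the genes this rule names, 1 is counted with its list and not reported here.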

Additional observations from a re-analysis of the deposited data

How the results depend on the processing

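Alternatives were DESeq2 in place of edgeR, DESeq2 size factors, no filter on low counts, the replicate number as a block, no mitochondrially encoded genes, robust dispersions, and leaving out each library. The number of the 10 genes with an adjusted p under 0.05 was 0 under each of them, with adjusted p-values from 0.597 to 1.00. Over the whole table it was 0 in all edgeR fits, where the unadjusted p was under 0.05 for 122 to 1134 genes when a library was left out, and 1 with DESeq2 (Slc46a2, log2 fold change 4.20). Of 60 log2 fold changes of the 10 genes under the 6 alternatives that keep all libraries, 59 kept their sign, and Id1 without a filter was 0.0016. Of 60 with 1 library left out, 8 turned sign. The ranges with a library left out were -0.095 to 0.031 for Id1, -0.71 to 0.095 for Bmp4, -0.097 to 0.12 for Smad3, -0.23 to 0.069 for Smad1, -0.0082 to 0.073 for Smad5 and -0.066 to 0.16 for the log2 ratio of BMP to TGF-beta SMADs. They were -1.70 to 0.13 for Gdf6, -2.59 to 0.39 for Fst and -1.73 to 0.43 for Id2, in each of which the sign turned without Zeb2 fl/fl replicate 2. The causes were not tested. Same-numbered libraries of the groups did not deviate together (Pearson's r across 14746 genes of 0.078, -0.13 and -0.074), so the numbers were not taken as pairs; with the replicate number as a block, 0 genes had an adjusted p under 0.05, beside 247 unadjusted. With 3 libraries a group, exact permutation p-values cannot go below 0.1.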

Other observations

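The markers of other cell types were summed per library. Smooth muscle and pericyte markers were at 559 to 735 CPM in Zeb2 fl/fl and at 650 to 779 CPM in Zeb2 cKO hearts, and endothelial markers at 499 to 681 and 597 to 712 CPM, with the lowest value of each in Zeb2 fl/fl replicate 2. Adipocyte markers were at 125 to 177 and 162 to 217 CPM, so that the sums of the groups overlapped, and 6 of the 8 were detected in all libraries. For 5 of the 8 the groups did not overlap, against 6.36% of all genes that passed the filter. This list was chosen with earlier results of these data known. Whether its markers vary independently was not tested, so the share is a description and no test of a difference. Lymphocyte markers were at 1.25 to 3.21 and 0.876 to 1.71 CPM, and Schwann cell markers at 3.20 to 5.99 and 3.01 to 5.19 CPM.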
